A study of Mus musculus with 4 samples.

Results

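Chromosome 19 carries Malat1, the gene of the long noncoding RNA that was pulled down here, so any contact of the RNA with chromatin in cis would lie on it. The regions described are all chromosome 19 peaks of a Malat1 ChIRP-seq peak list other than the single peak over Malat1 itself. They number 1854 of the 77823 peaks in the list, and each was placed by its summit on mm10 (GRCm38). ChIRP (chromatin isolation by RNA purification) captures an RNA with biotin-labelled antisense oligonucleotides and sequences the DNA recovered with it. The cells were 4T1-TGL, a breast cancer line labelled as of BALBC strain and WT genotype, which all groups share. The groups are an Even ChIRP library, an Odd ChIRP library, a LacZ ChIRP library and an Even input library, 1 library each. In ChIRP, Even and Odd commonly name a pair of probe pools for the RNA of interest, and LacZ names a non-targeting control.

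The list is 1 run of a merged treatment against 1 input, and the sources used here do not say which pull-downs were merged. The treatment held 988411 tags (851227 after filtering), and the input held 52861677 (50030325 after filtering), so the input was 58.8 times as deep. No library was seen on its own, so no value has a replicate check, and the intervals below cover counting error only. The values of a peak are those of the authors' peak caller. They are its tag count, its fold (the height at the summit over the highest local input after scaling) and its summit height. Dividing height by fold gives the input level that the caller used at that summit, here written as a multiple of the genome mean. This implied input is known only at peaks and cannot go below 1 by construction.

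Malat1 is a nuclear RNA that gathers in nuclear speckles, bodies rich in splicing factors, and binds at many active genes. It is abundant in many tumour cells, and its loss has been linked to changed metastasis in mouse breast cancer models, with reports in both directions. Neat1, its neighbour, gives the RNA that builds paraspeckles. Malat1 is read from the minus strand, so lower coordinates lie beyond its 3′ end and higher coordinates, where Neat1 is, lie beyond its 5′ end.

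The peak over Malat1 (chr19:5795447-5802752, over the gene at chr19:5795690-5802672, gene ID 72289) is left out of all values that follow. It held 2818 tags, 16.6% of the 17006 tags in chromosome 19 peaks, over 7306 bp, with a fold of 904 at an implied input of 1.46. The other 1854 peaks held 14188 tags, and the richest of them held 81.

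Sequences are shown for promoters, since promoter windows are the part of chromosome 19 whose letters were at hand. Each window runs from 250 bases before a gene's start to 50 bases after it, 5′ to 3′ on the gene's strand, from RefSeq on GRCm38.p6. Capitals mark 53 bases centred on the summit, which is the fragment length the peak caller used. Aldh1a1 and Col17a1 are shown because their windows hold peaks of many tags, Mrpl16 because its window holds 2 summits (the first is marked), and Crtac1 as a window rich in G and C. The Malat1 window is given as the point from which distances beyond the 5′ end run, with no capitals because its peak is not among those described.
Aldh1a1, plus strand, chr19:20492333-20492632: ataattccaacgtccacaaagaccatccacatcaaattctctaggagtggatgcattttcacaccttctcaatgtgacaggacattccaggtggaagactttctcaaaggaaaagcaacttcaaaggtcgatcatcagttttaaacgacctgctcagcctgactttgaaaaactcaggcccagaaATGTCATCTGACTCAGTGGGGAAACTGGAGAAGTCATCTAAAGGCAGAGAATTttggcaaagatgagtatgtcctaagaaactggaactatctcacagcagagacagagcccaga
Col17a1, minus strand, chr19:47691993-47692292: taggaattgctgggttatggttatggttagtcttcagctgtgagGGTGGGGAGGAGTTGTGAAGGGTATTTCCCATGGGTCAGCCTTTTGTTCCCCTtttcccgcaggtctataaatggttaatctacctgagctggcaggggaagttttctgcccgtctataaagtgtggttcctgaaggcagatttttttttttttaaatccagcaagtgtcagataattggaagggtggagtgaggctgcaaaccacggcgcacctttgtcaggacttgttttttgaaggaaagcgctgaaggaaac
Mrpl16, plus strand, chr19:11770165-11770464: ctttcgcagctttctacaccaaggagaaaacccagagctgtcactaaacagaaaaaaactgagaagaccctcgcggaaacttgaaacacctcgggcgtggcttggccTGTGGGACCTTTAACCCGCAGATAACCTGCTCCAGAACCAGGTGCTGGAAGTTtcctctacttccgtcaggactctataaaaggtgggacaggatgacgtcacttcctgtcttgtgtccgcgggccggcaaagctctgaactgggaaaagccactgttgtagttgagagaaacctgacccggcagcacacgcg
Crtac1, minus strand, chr19:42431445-42431744: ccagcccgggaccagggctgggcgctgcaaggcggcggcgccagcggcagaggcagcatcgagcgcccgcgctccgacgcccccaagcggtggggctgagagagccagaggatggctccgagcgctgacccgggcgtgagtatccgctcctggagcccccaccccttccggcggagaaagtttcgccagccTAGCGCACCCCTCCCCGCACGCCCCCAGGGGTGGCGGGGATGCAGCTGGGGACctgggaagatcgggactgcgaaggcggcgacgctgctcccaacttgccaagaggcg
Malat1, minus strand, chr19:5802623-5802922: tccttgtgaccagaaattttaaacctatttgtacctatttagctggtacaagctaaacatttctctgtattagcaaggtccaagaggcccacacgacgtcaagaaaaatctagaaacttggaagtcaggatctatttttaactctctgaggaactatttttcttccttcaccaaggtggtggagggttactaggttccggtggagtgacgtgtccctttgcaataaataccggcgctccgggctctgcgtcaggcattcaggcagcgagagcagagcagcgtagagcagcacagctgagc

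Around Malat1 most peaks held few tags. Of the 18 peaks with a summit within 250 kb (36 per Mb, exact Poisson 95% interval 21.3 to 56.9), 9 held the minimum of 3 tags, 2 held at least 10 and none held 30. Tags ran between 3 and 24 with a median of 3.5, and folds ran between 79.2 and 370 with a median of 157. The nearest summit beyond the 5′ end lay 16.2 kb away (chr19:5818848-5818924), between Malat1 and Neat1, with 3 tags and a fold of 166. The nearest beyond the 3′ end lay 45.7 kb away (chr19:5749945-5750054), inside Ltbp3, with 7 tags and a fold of 277. The interval between these summits, 68.9 kb with Malat1 inside it, was the 205th longest between neighbouring members on the chromosome, where the median interval was 18992 bp.

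On the 3′ side, the peak with the most tags lay inside Ehbp1l1 at 74.9 kb (chr19:5720744-5721051), with 24 tags and a fold of 370. A second peak in Ehbp1l1, at 86.9 kb, held 3 tags with a fold of 116. Ltbp3, which encodes a binding protein of latent TGF-beta, held a second peak of 3 tags and fold 177 at 47.2 kb. Map3k11, a kinase upstream of JNK, held a peak of 6 tags and fold 155 at 103 kb. Pcnx3 held one of 3 tags and fold 79.2 at 108 kb, close to its end. These genes lie close together, and a summit near a gene end could be counted for a neighbour too. Farther out, single peaks of 3 tags lay near Kat5, the gene of the TIP60 acetyltransferase, at 174 kb, near Rnaseh2c, a subunit of ribonuclease H2, at 196 kb, and near Ap5b1, an adaptor complex subunit, at 220.3 kb. Their folds were 167, 123 and 96.4. A pseudogene, Gm31166, held a peak of 8 tags and fold 148 at 249 kb.

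On the 5′ side, Neat1 held a peak of 14 tags with a fold of 256 and an implied input of 1.4, at 27.4 kb (chr19:5829947-5830154). No summit followed for 92.3 kb. Cdc42ep2, an effector of the GTPase Cdc42, held the next peak at 119.7 kb, with 3 tags and a fold of 95.1 at an implied input of 1.89. Pola2, a subunit of DNA polymerase alpha, had a peak of 3 tags and fold 110 just outside its body at 137 kb and one of 6 tags and fold 159 inside it at 142 kb. Capn1, a calpain protease, held peaks of 8 and 4 tags, at 188 and 206 kb, with folds of 196 and 139. The noncoding gene Gm10814 held one of 8 tags and fold 299 at 215 kb. Both sides had 6 summits between 0.1 and 0.25 Mb, and within 0.1 Mb there were 4 on the 3′ side and 2 on the 5′ side.

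Widening the range to 500 kb gave 31 peaks, 2 of them with at least 30 tags. One lay in Tm7sf2, a sterol reductase gene, at 265 kb (chr19:6067350-6067651), with 36 tags, a fold of 693 and an implied input of 1.12. The other lay in Naaladl1, a peptidase gene, at 308 kb (chr19:6110770-6111202), with 41 tags, a fold of 538 and an implied input of 1.11. Both are on the 5′ side and rank 43rd and 24th by tags among the 1854 peaks. On the 3′ side, 4 peaks of at least 30 tags came together between 1 and 2 Mb, with summits between 3871621 and 3913385. Chka, a choline kinase gene, held peaks of 30 and 40 tags, Tcirg1, a proton pump subunit gene, held 33, and a peak of 30 lay 106 bp from Aldh3b1, with folds of 308, 488, 598 and 347. These 4 fall outside the naming rule and were chosen after their values were seen.

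**Figure D1:**
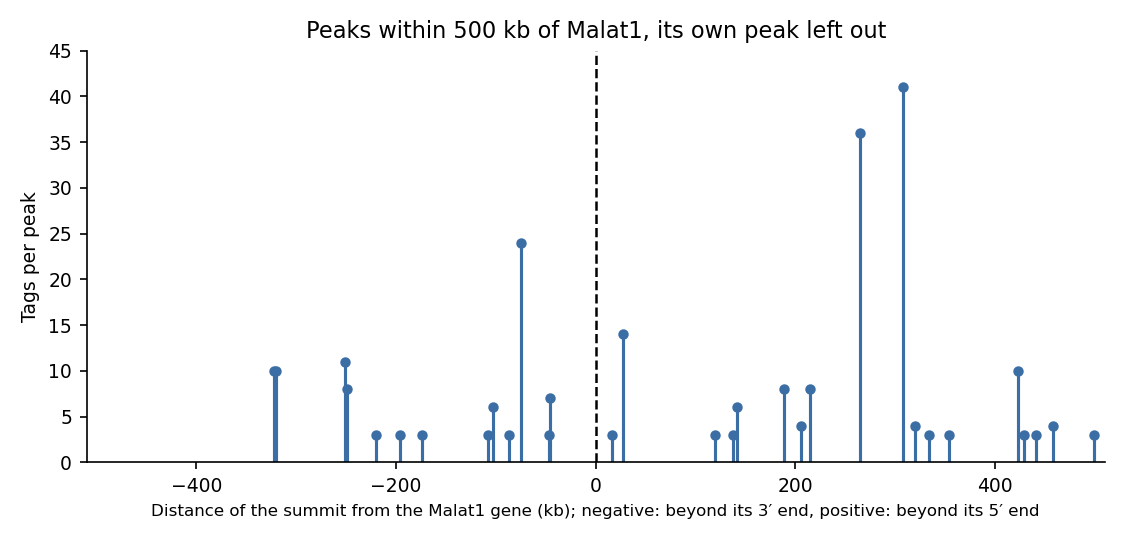
Tags per peak (vertical axis) against the distance of its summit from the Malat1 gene in kb (horizontal axis), for the 31 peaks within 500 kb, with the Malat1 peak left out and the gene at 0. Most stems end at 3 to 14 tags, and the 2 above 30 tags (36 and 41) stand at 265 and 308 kb beyond the 5′ end.

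The first 1 Mb on either side of Malat1 held 70 summits, 35.0 per Mb (exact Poisson 95% interval 27.3 to 44.2), against 31.7 per Mb (30.3 to 33.2) on the rest of the chromosome. The ratio was 1.1. It was 1.13 for the first 0.25 Mb, 0.973 for the first 0.5 Mb and 0.925 for the first 5 Mb, so its side of 1 depended on the distance chosen. The 70 peaks and the other 1784 had the same median of 4 tags. Their median fold was 155, against 145 farther away. Their median implied input was 1.22, against 1.35 farther away. Peaks with at least 30 tags were 2 of 70 near Malat1 (2.86%, Wilson 95% interval 0.787 to 9.83) and 61 of 1784 farther away (3.42%, 2.67 to 4.37), beside 4.01% over all peaks of chromosomes 1 to 19 and X. Tags per Mb within 1 Mb were 1.04 times those of the rest.

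By rising distance, both sides joined, summits per Mb came to 30 within 0.1 Mb (11 to 65.3), 40 between 0.1 and 0.25 Mb (20.7 to 69.9), 26 up to 0.5 Mb (13.8 to 44.5) and 39 up to 1 Mb (27.7 to 53.3). They came to 32.5 between 1 and 2 Mb, 25.5 between 2 and 5 Mb, 21.6 between 5 and 10 Mb (17.7 to 26.1), 22.8 between 10 and 20 Mb and 24.6 between 20 and 30 Mb (21.6 to 27.9). They then rose to 40.3 between 30 and 40 Mb (36.5 to 44.4), 39.1 between 40 and 50 Mb and 45.1 beyond 50 Mb (39.6 to 51.0). The density was thus lowest at middle distances and highest at the far end of the chromosome. The median implied input took 1.08 in the closest interval, 1.24 between 1 and 2 Mb, 1.13 between 5 and 10 Mb, 1.08 between 10 and 20 Mb, 1.41 between 30 and 40 Mb and 1.5 beyond 50 Mb. Protein-coding genes were dense around Malat1, with 45 per Mb within 0.1 Mb and 46.7 between 0.1 and 0.25 Mb. They were densest between 0.25 and 0.5 Mb, at 74 per Mb, and stood at 4.80 between 10 and 20 Mb and 8.0 beyond 50 Mb.

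**Figure D2:**
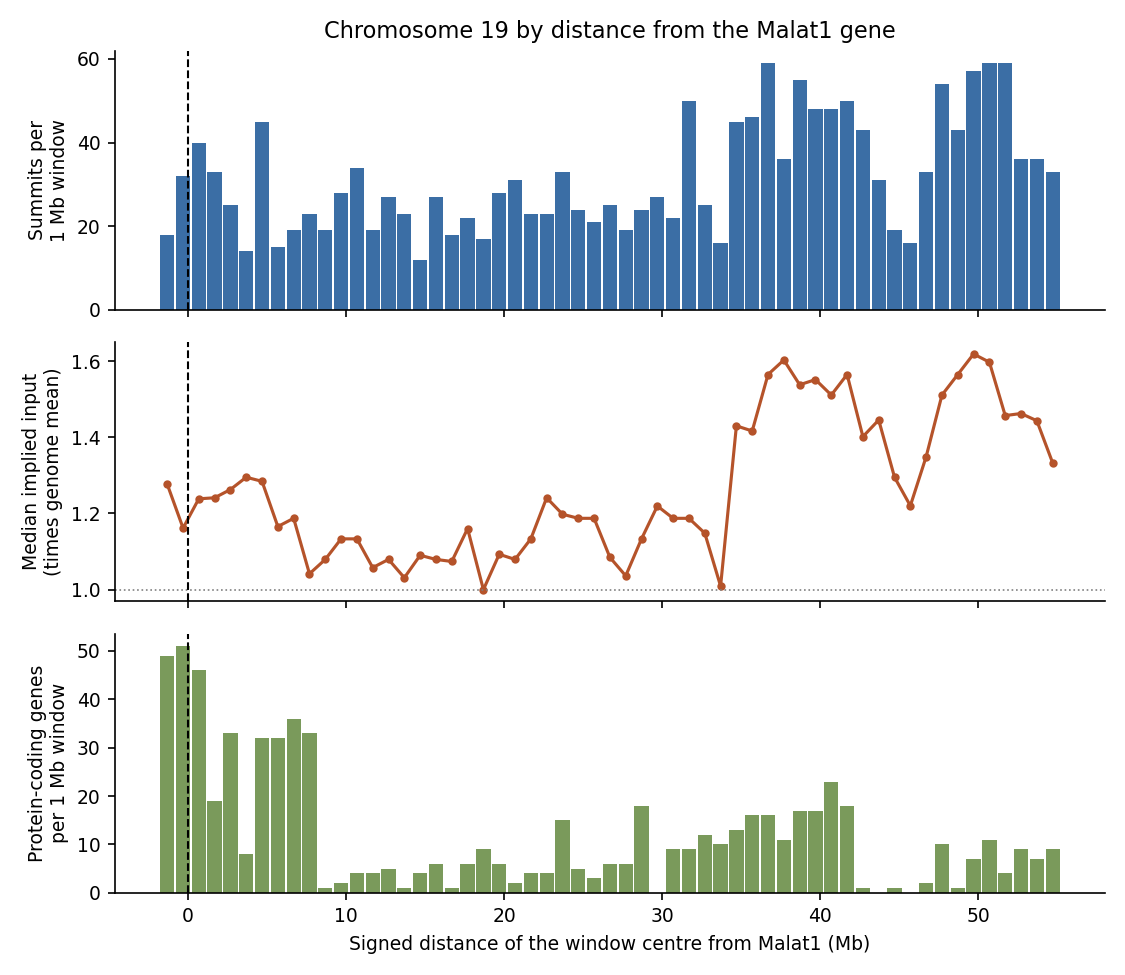
Summits (top), median implied input in multiples of the genome mean (middle) and protein-coding genes (bottom) in 1 Mb windows of chromosome 19, against the signed distance of the window centre from Malat1 in Mb (dashed line at the gene, positive values beyond its 5′ end). The window of the gene and the next one hold 32 and 40 summits, those between 5 and 30 Mb mostly under 30, and the highest, with 59, lie beyond 35 Mb where the implied input is also high.

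The change along the chromosome is described by a split at 40 Mb on the map, a position chosen after the profile had been seen. Windows of 1 Mb held between 16 and 59 summits beyond it and between 12 and 50 before it, so the ranges overlapped. Beyond the split 919 summits lay at 43.1 per Mb (40.4 to 46.0), and before it 935 lay at 25.3 per Mb (23.7 to 27.0), a ratio of 1.70. Tags per Mb were 329 beyond it and 194 before it. The median implied input was 1.5 beyond it and 1.17 before it, and window medians ran from 1.22 to 1.62 beyond it and from 1.00 to 1.30 before it. The peaks themselves did not grow with their number: the median tag count was 4 in both, the median fold was 128 beyond and 166 before, and the share with at least 30 tags was 3.48% beyond and 3.32% before. With peaks of implied input up to 1.5 alone the ratio was 0.969, a limit that by its construction removes more peaks where the input is high. The part of the input level in this difference was not tested.

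Within the first 40 Mb, the same 70 summits near Malat1 stood at 35.0 per Mb against 24.8 per Mb (23.1 to 26.5) on the remaining 34.9 Mb, a ratio of 1.41 (95% interval 1.11 to 1.80, counting error only). The same interval around the ratio of 1.1 for the whole chromosome was 0.869 to 1.4. The comparison within 40 Mb was added after the data were seen. Its cut leaves out the denser part of the chromosome, at 43.1 per Mb, and so raises the ratio by construction. The interval takes no account of that choice. With peaks of implied input up to 1.5, over the whole chromosome, the ratio was 1.31 (1.01 to 1.71). That limit by its construction removes more peaks where the input is high, and the median implied input was 1.35 farther than 1 Mb from Malat1. The peaks near Malat1 had a median implied input of 1.22, against 1.17 over the first 40 Mb. The distance intervals within 1 Mb of it held between 31 and 74 protein-coding genes per Mb, against 13.8 per Mb over the first 40 Mb. The part of either in the ratio was not tested.

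Over the 57 whole windows of 1 Mb, the summit number went with distance from Malat1 (Pearson r = 0.529, Spearman rho = 0.50) and with the median implied input (r = 0.785, rho = 0.696). Distance and implied input also went together (r = 0.657, rho = 0.602). Within the 36 windows before 40 Mb, distance and summits had r = -0.0393 and rho = -0.0418, and within the 21 windows beyond it r = -0.133 and rho = -0.140. These coefficients describe neighbouring windows of 1 peak list that share the same treatment and input, and they carry no test. The number of protein-coding genes in a window had r = 0.0781 and rho = 0.235 with its summits.

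The densest windows began at 42, 56 and 57 Mb with 59 summits each, at 55 Mb with 57 and at 44 Mb with 55. The sparsest began at 20 Mb with 12 summits, at 9 Mb with 14, at 11 Mb with 15, and at 39 and 51 Mb with 16 each. All of the densest thus lay beyond 40 Mb, and so did 1 of the sparsest. The window that begins at 5 Mb, which contains Malat1, and the one that begins at 6 Mb held 32 and 40 summits and 218 and 332 tags. Their implied inputs were 1.16 and 1.24, and they held 51 and 46 protein-coding genes, among the highest gene counts of the chromosome. The 3 longest intervals without a summit lay within 3 Mb of Malat1: 403875 bp over the Slc22a26 to Slc22a29 genes and 323821 bp over Slc22a29 and Slc22a30, which encode organic anion transporters, and 304963 bp over 27 protein-coding genes between 3984858 and 4289821, Gstp1, Ppp1ca and Grk2 among them. Transporter copies of such a cluster resemble one another, and the sources used here do not say how tags with several matches were treated.

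Set beside the rest of the genome, chromosome 19 lay within the range of the other chromosomes in density. It held 31.8 summits per Mb (30.4 to 33.3), and the other 18 autosomes averaged 31.7 with a median of 29.6 and a range of 19.6 to 61.3. It ranked 7th of 20 chromosomes. A line of log2 density on log2 median implied input was drawn through the other autosomes, and chromosome 19 stood at 1.09 times it, where they themselves ranged between 0.854 and 1.37 times it. In 1 Mb windows grouped by implied input, median summits were 21 on chromosome 19 and 15 on the other autosomes at inputs of 1 to 1.1, 24 and 25 at 1.1 to 1.25, 34.5 and 32 at 1.25 to 1.5, and 52 and 48 at 1.5 to 2. The 2 Mb around the coordinates of Malat1 held 70 summits and 505 tags on chromosome 19, 7th among 19 autosomes for both. The same coordinates on the other 18 held between 1 and 158 summits with a median of 60, and between 3 and 1255 tags with a median of 387. For protein-coding genes chromosome 19 came first there, with 91 against a median of 9.5.

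**Figure D3:**
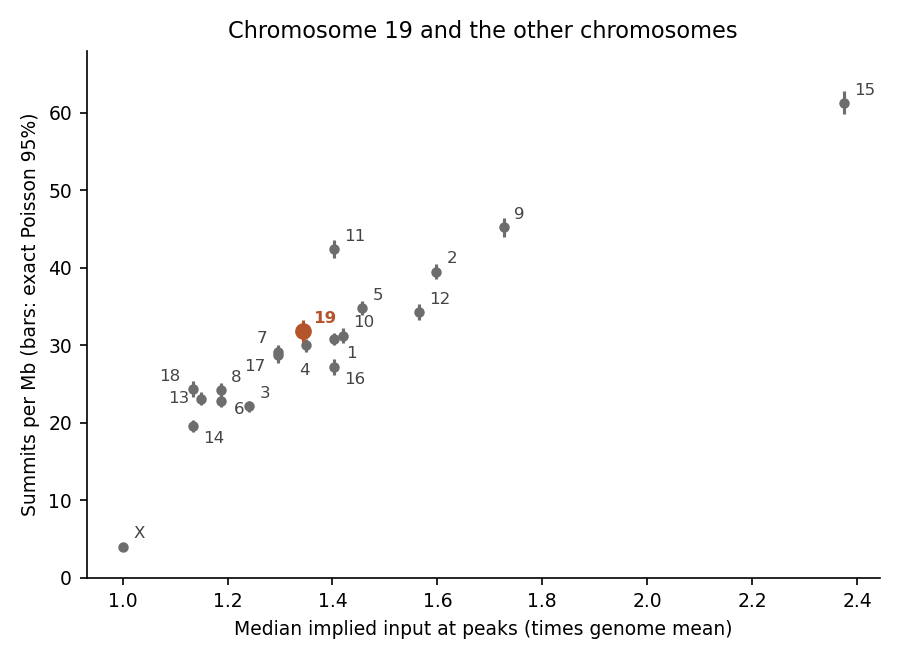
Summits per Mb (vertical axis, bars exact Poisson 95% intervals) against the median implied input at peaks in multiples of the genome mean (horizontal axis), for chromosome 19 (orange) and each other chromosome (grey). Chromosome 19, at 31.8 per Mb and 1.34, lies inside the band formed by the others.

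Chromosome 19 peaks were set beside all peaks of chromosomes 1 to 18 and X. The minimum of 3 tags was met by 744 of them (40.1%, Wilson 95% interval 37.9 to 42.4), against 37.2% elsewhere. At least 30 tags were held by 63 (3.40%, 2.66 to 4.32), against 4.02%. Chromosome 11 moves this last value, with 14.2% of its peaks at 30 tags or more, and without it the others hold 3.28%, which turns the direction. By this share chromosome 19 ranked 5th of 20. The 3-tag share of the others without chromosome 11 was 37.9%. The median fold was 145, tied for 8th of 20 chromosomes, against 133, and the median implied input was 1.34, against 1.4. Longer than 500 bp were 5 of the 1854 peaks (0.27%), against 1.34% elsewhere and 0.625% elsewhere without chromosome 11. At the genome mean input a summit of 3 tags has a fold of 179.5, so the fold of a small peak depends on the input at its summit. Neighbouring summits were 18992 bp apart at the median, against 16964 bp, and 32.3% of intervals were at most 10 kb, against 36.5%.

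**Figure D4:**
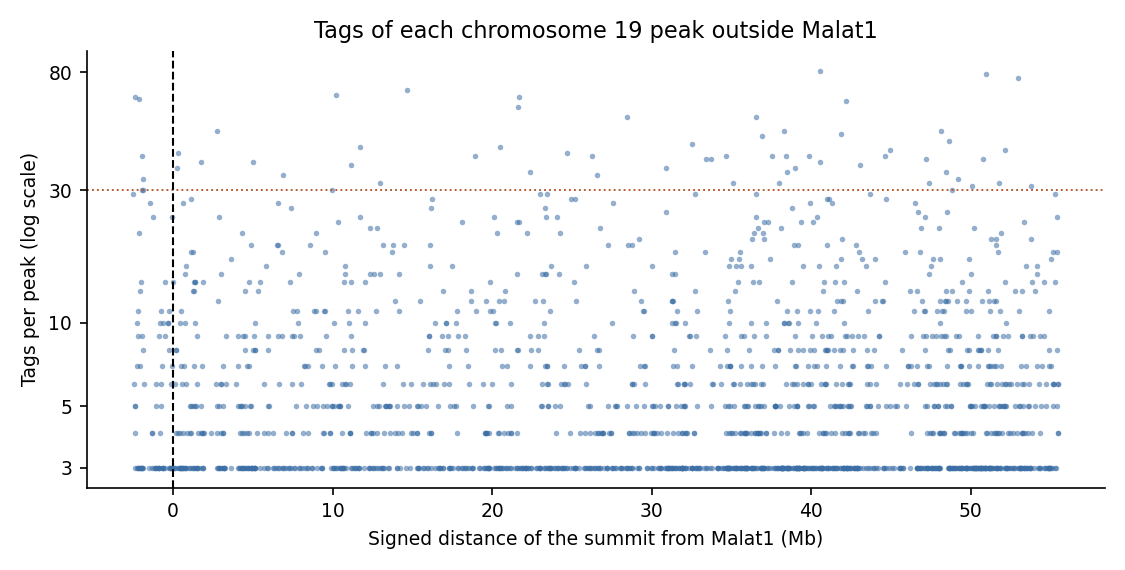
Tags of each of the 1854 peaks (vertical axis, log scale) against the signed distance of its summit from Malat1 in Mb, with a dotted line at 30 tags. Points above the line occur along the whole chromosome, 2 of them within 1 Mb of the gene, and the top value is 81.

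The 12 peaks with the most tags held between 55 and 81 and lay 2.12 to 53 Mb from Malat1, 5 of them past the 40 Mb map position and none within 1 Mb of the gene. Inside protein-coding genes lay 6, inside noncoding genes 2 and outside genes 4. The top peak lay in Cuedc2 (chr19:46332575-46333055), a CUE-domain protein gene, with 81 tags and a fold of 853, at 40.5 Mb. Next came a peak 5070 bp from Adrb1, the beta-1 adrenergic receptor gene (79 tags, fold 768), and one in Pnliprp2, a pancreatic lipase relative (76 tags, fold 702). The Aldh1a1 promoter followed with 69 tags and a fold of 856. Lrp5, a Wnt co-receptor gene only 2.12 Mb from Malat1 on the 3′ side, held 64 tags with a fold of 572. Peaks in the noncoding gene C130060C02Rik (66 tags), 17799 bp from Ppp6r3 (65) and 48521 bp from C030016D13Rik (65) were of like size. The remaining ones were in Cfap58 (63), Pum3 (60), Gm31355 (55) and Crtac1 (55).

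By fold, 7 of the top 12 were the same peaks as by tags. The highest was in the noncoding gene Gm26629 (chr19:50730245-50730526), with 42 tags, a fold of 898 and an implied input of 1.00. The others outside the tag list were in Pcsk5, a proprotein convertase gene (43 tags, fold 840), 22607 bp from the pseudogene Gm17885 (41, 778), 23315 bp from Atrnl1 (32, 773) and in Hpse2, a heparanase relative (40, 707). At the other end, a peak in Fbxw4 held 40 tags at an implied input of 35.8 and had a fold of 33.5, the lowest of all members. That peak falls outside the naming rule and was chosen after its value was seen.

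Relative to genes, 159 summits (8.58%) lay within 1 kb of an end of a gene, 914 (49.3%) elsewhere in a protein-coding gene, 128 (6.90%) in another gene and 653 (35.2%) outside, against 7.92%, 44.5%, 6.87% and 40.7% on the other chromosomes. Counted whole, protein-coding genes held 53.5% of chromosome 19 summits (51.2 to 55.7) and covered 48.0% of its span, a ratio of 1.11, against 47.9% of summits on 39.2% of the span elsewhere, a ratio of 1.22. The larger share in genes thus came with a larger covered share. Across the 365 genes examined whose strand was known, with or without a summit, there were 795 summits. When each gene was cut into 5 equal parts, these held, in order from 5′ to 3′, 19.2%, 16.9%, 18.9%, 21.4% and 23.6% of them (20.8 to 26.7 in the last), against 19.3%, 19.3%, 19.2%, 20.6% and 21.6% elsewhere. The last part, at the 3′ end, held the largest share in both.

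Of the 705 protein-coding genes of chromosome 19, 413 (58.6%, Wilson 95% interval 54.9 to 62.2) had a summit in or at most 5 kb from the gene, against 60.9% on the other chromosomes and 60.8% over all. Near Malat1 the count was 13 of 23 within 250 kb (56.5%, 36.8 to 74.4), and 44 of 91 within 1 Mb (48.4%, 38.4 to 58.5). It was 121 of 267 between 1 and 10 Mb (45.3%) and 248 of 347 farther than 10 Mb (71.5%, 66.5 to 76.0). Gene length moved with these shares: the median was 8.50 kb within 1 Mb, 8.28 kb between 1 and 10 Mb and 33.9 kb farther out. Its part in the shares was not tested. The 23 genes within 250 kb include 10 without a summit, among them Rela, the p65 subunit of NF-kB, Sipa1, a Rap GTPase-activating protein linked to metastasis in mice, Fam89b, Znrd2, Frmd8, Slc25a45, Tigd3, Dpf2, a BAF complex subunit, and Syvn1, an ER ubiquitin ligase. Frmd8 is among the closest to Malat1, with its midpoint at 60.4 kb. The 13 with a summit are Ovol1, Ap5b1, Rnaseh2c, Kat5, Pcnx3, Map3k11, Kcnk7, Ehbp1l1, Ltbp3, Cdc42ep2, Pola2, Slc22a20 and Capn1. In 7 of these a summit lay in the body itself, and several pairs of neighbours share a peak, such as Rnaseh2c with Kat5.

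Among genes of like length, chromosome 19 matched the other chromosomes. A summit was found for 29.2% of genes under 5 kb on chromosome 19 and 29.8% elsewhere, for 53.2% and 52.7% of those of 5 to 20 kb, and for 70.0% and 71.9% of those of 20 to 50 kb. The shares were 87.7% and 85.7% at 50 to 100 kb and 98.5% and 96.7% at 100 kb or more. In each class the value elsewhere lay inside the Wilson interval of chromosome 19. Noncoding genes of the lncRNA type had a summit in 182 of 339 cases (53.7%), against 51.6% elsewhere.

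**Figure D5:**
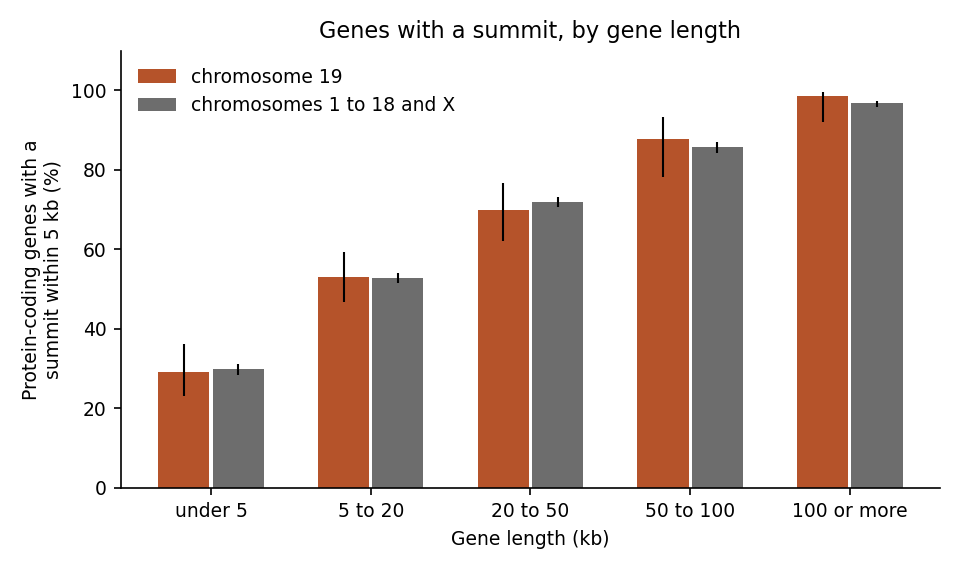
Percent of protein-coding genes with a summit in the gene or at most 5 kb from it (vertical axis, bars Wilson 95% intervals) by gene length in kb, for chromosome 19 (orange) and chromosomes 1 to 18 and X (grey). The share climbs with length alike in both, 29.2% and 29.8% in the shortest class and 98.5% and 96.7% in the longest.

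The genes with the most summits were long. Their summits per kb ran from 0.0187 (Trpm3) to 0.108 (Entpd1), beside 31.8 per Mb over the chromosome, so they lay on both sides of its density. Atrnl1, an attractin relative of 522 kb, held 27, with a best fold of 429. Sorcs3, a sortilin-family receptor gene of 599 kb, held 26 (best fold 296), and Prkg1, a cGMP-dependent kinase gene of 1201 kb, held 23 (598). Hpse2 held 19 (best fold 707), and Trpm3, a cation channel gene, and Vti1a, a SNARE gene, held 16 each (292 and 338). Entpd1, the CD39 ectonucleotidase, and Rbm20, a splicing regulator of titin, held 14 each (299 and 444). Ablim1, an actin-binding protein gene, and Slit1, an axon guidance gene, held 13 each (371 and 171). Of these 10, Trpm3 lay at 16.8 Mb and Prkg1 at 25.4 Mb from Malat1 and the other 8 at 34.9 Mb or farther. Per kb, among genes of at least 10 kb, the densest were Plekhs1 (7 summits, 0.238 per kb), Borcs7, a lysosome-positioning complex subunit (3, 0.223), Fam160b1 (6, 0.209), Tectb, the beta-tectorin of the inner ear (3, 0.192), and Ganab, a glucosidase II subunit (3, 0.161). Ganab lay 3.10 Mb from Malat1, Borcs7 at 40.9 Mb, and the other 3 between 49.4 and 51.6 Mb.

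The gene lists are read against the 58.6% of all chromosome 19 genes, whose median length is 15.3 kb. The splicing and tumour lists (medians 14.1 and 11.1 kb) stand beside 53.2% of genes of 5 to 20 kb. The Wnt and immune lists (20.8 and 26.0 kb) stand beside 70.0% of genes of 20 to 50 kb. Of these, only the splicing share lay above its length class. Wilson intervals were 38.6 to 81.5% for splicing, 33.5 to 70.0% for tumour, 35.4 to 87.9% for Wnt and 43.0 to 80.3% for immune genes. Each interval holds 58.6% and the share of the length class. Splicing and RNA-processing genes had a summit in 10 of 16 cases (62.5%), led by Cwf19l1 (fold 608, 49 tags), Rbm20 (444, 22), Sf3b2, a subunit of the SF3b splicing complex (299, 14), and Cpsf7, a cleavage factor subunit (209, 7). Sf3b2 lies 0.511 Mb from Malat1. Wnt genes had one in 6 of 9 (66.7%), led by Lrp5, then Tcf7l2, the transcription factor of the pathway (341, 15), Sfrp5, a secreted inhibitor (299.7, 21), and the corepressor Tle4 (172, 5). NF-kB, interferon and immune genes had one in 14 of 22 (63.6%), led by Chuk, the IKK-alpha kinase (608, 49, the same peak as that of Cwf19l1), Cd6 (606, 38), Ifit2 (572, 19) and Jak2 (444, 29). Tumour growth, suppression and metastasis genes had one in 13 of 25 (52.0%), led by Aldh1a1, a retinal dehydrogenase used as a marker of tumour stem-like cells, Esrra, a nuclear receptor gene (475, 18), Kank1 (419, 12) and Smarca2, an ATPase of the BAF complex (359, 7). The peak counted for Esrra lay outside its body and is shared with neighbouring genes, and that counted for Sfrp5 lay outside its body too. So did the peak of Chuk, whose summit is inside Cwf19l1, and that of Aldh1a1, 39 bp from the gene.

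Long neuronal and adhesion genes, of a median 253 kb, all had a summit (17 of 17), beside 98.5% of chromosome 19 genes of 100 kb or more. Some members are shorter than that. The list was led by Pcsk5 (fold 840, 43 tags), Prkg1 (598, 28), Gnaq, a G protein subunit (528, 23), and Nrxn2, a synaptic adhesion gene (454, 27). Cyp2c cytochrome P450 genes, which metabolise drugs and fatty acids in the liver, are of a median 40.2 kb. They had one in 8 of 15 cases (53.3%), beside 70.0% of chromosome 19 genes of 20 to 50 kb. Their highest folds were at Cyp2c39 (619, 39), Cyp2c66 (419, 18), Cyp2c38 (299, 8) and Cyp2c67 (239, 6). Ms4a membrane protein genes of a median 17.4 kb had one in 5 of 21 (23.8%), beside 53.2% of chromosome 19 genes of 5 to 20 kb, led by Ms4a5 (479, 14), Ms4a20 (302, 13), Ms4a2 (231, 16) and Ms4a6b (198, 6). With a flank of 10 kb the Ms4a share was 47.6%, beside 68.4% of all chromosome 19 genes. Olfactory receptor genes, of a median 0.945 kb, had one in 14 of 63 (22.2%), beside 29.2% of chromosome 19 genes under 5 kb, led by Olfr1462 (493, 26), Olfr1490 (467, 10), Olfr1463 (402, 9) and Olfr1494 (359, 9). The olfactory receptor share was 3.17% for the gene body alone and 38.1% with a flank of 10 kb. The peaks counted for Cyp2c67, Ms4a2 and the olfactory receptor genes named lay outside the gene bodies. The last 3 families are clusters of similar copies, so the assignment of a peak to one member is uncertain.

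Promoter windows of 300 bases were also searched for summits. Of 1044 annotated windows on chromosome 19, 10 held one (0.958%, Wilson 95% interval 0.521 to 1.75), against 416 of 31575 elsewhere (1.32%) and 1.31% over all. Windows this short cover little of the span, so a low share is not by itself a sign of avoidance. The share that this length alone would give was not computed. The Aldh1a1 window shown above held its summit 39 bases before the gene start (69 tags, fold 856), and the window of the noncoding gene E030003E18Rik overlaps it and holds the same peak. Col17a1, the gene of a collagen of epithelial anchoring junctions, held 48 tags with a fold of 457 at an implied input of 1.83, with the summit 180 bases before the start. The others were small. Olfr1499 held 6 tags, Crtac1 held 5 at 33 bases before its start, and Gm52396, Gm32341 and Foxb2, a forkhead gene, held 4 each. Mrpl16, a mitochondrial ribosome gene, held summits of 4 and 3 tags at 117 and 2 bases before its start, and Gm41862 held 1 of 3 tags. None of the 10 lies within 1 Mb of Malat1.

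The 10 windows had a median GC content of 51.0%, against 54.7% in the 1034 windows of chromosome 19 without a summit, and a median of 4.5 CG dinucleotides, against 10. Searched on both strands, GAGAGA occurred in 3 of the 10 windows, and in 24.1% of all windows on chromosome 19 and 24.0% on chromosomes 1 to 19 and X. TATAAA occurred in 3 of 10, against 13.2% and 13.7%, and CCAAT in 2 of 10, against 38.7% and 37.6%. GGGCGG occurred in none of the 10, against 40.5% and 35.9%, and CACGTG in none, against 6.70% and 7.20%. No motif contains another, and with 10 windows a single window moves a share by 10 percentage points.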

How the data were processed

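Peaks came from 1 run of MACS 1.4.4 on a merged treatment and 1 input, per the file headers, with fragments of 53 bp, a cutoff on p of 1e-05 and input read over 1 and 10 kb. Per the submitters' processing notes, coordinates are on mm10 (GRCm38). No source used here names the aligner. Single reads of 76 nt were sequenced, per the labels' protocols. The deposited tag count is a whole-number count per peak. The deposited fold is a ratio of summit height to scaled local input. The deposited score, a scaled negative log10 of p, served only as an alternative limit. The deposited summit height is a pileup signal. The deposited false discovery rate is 0 percent throughout and was not used.

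Implied input was height over fold, divided by the genome mean (0.0167 tags per fragment length). Density used the span from the first to the last gene or summit. Genes came from RefSeq GRCm38.p6. Python 3.11.15, pandas 2.3.3, numpy 2.4.6 and scipy 1.17.1 were used, and the profile calculation was tested on simulated summits. There was no test between groups, since each has 1 library, and the alternatives tried were limits on tags, score, fold and implied input, other gene flanks, positions and spans. The members and gene lists were chosen with earlier results of these data known. Named were all peaks within 250 kb of Malat1, the 12 highest by tags and by fold, the 10 genes with the most summits, the 5 densest per kb, 4 of each list by fold, all genes within 250 kb (a few genes are not reported here) and the 5 densest and 5 sparsest windows. 1 list name, a misspelling of Atrnl1, matched no gene.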

Additional observations from a re-analysis of the deposited data

How the results depend on the processing

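No paired analysis was possible because the single peak list merges its pull-downs and each group has 1 library. Of 65 values recomputed for the main comparisons, 43 stayed inside the counting interval of the value reported. The ratio of summits per Mb within 1 Mb of Malat1 to the rest, 1.1, was 1.41 in the first 40 Mb alone, an alternative chosen after seeing the data, and 1.31 with peaks of implied input up to 1.5. The ratio of tags per Mb, 1.04, was 1.32 in the first 40 Mb, 1.396 with implied input up to 1.5 and 1.24 beyond the 5′ end alone; its interval counts tags, which share peaks, and is too narrow. Spearman's rho of distance and summits, 0.50, turned to -0.0418 in the first 40 Mb and to -0.0186 with peaks of implied input up to 1.5. The ratio beyond over before 40 Mb, 1.70, was 1.2 with folds at or above the genome-wide median and 0.969 at implied inputs up to 1.5. Chromosome 19 over the other autosomes, 1.00, was 0.95 with at least 5 tags, 1.14 at the fold limit and 1.19 at the input limit. The ratio of median folds, 1.09, was 1.13 with at least 5 tags and 1.00 at the fold limit; leaving chromosome 11 out of the others, chosen after seeing the data, left it at 1.09. Within 1 kb of gene ends lay 8.58% of summits, 6.95% at scores at or above the median, and 31.3% within 5 kb, which left 37.0% in genes and 27.5% outside. Genes with a summit, 58.6%, were 43.7% with at least 5 tags, 44.1% at the score limit, 46.1% at the fold limit, 46.0% for the body alone and 68.4% within 10 kb. Fewer peaks or another flank make these last changes by construction. The cut at 40 Mb likewise raises the ratios near Malat1 by construction, since it leaves out the denser part. The limit on implied input by construction removes more peaks where the input is high, which bears on every ratio and rho given at it. It kept 69.0% of chromosome 19 peaks, against 59.2% of all peaks. The fold limit kept 56.7%, against 50.5%, and the ratio to the other autosomes rose at both limits. The cause of the remaining changes was not tested. Of 56 values for the lists, 49 stayed inside their interval; the others were Wnt (88.9% within 10 kb), immune (40.9% at the score limit), Ms4a (47.6% within 10 kb) and olfactory receptors (12.7% with at least 5 tags and at the score limit, 3.17% for the body alone, 38.1% within 10 kb). Most peaks hold under 5 tags, which limits any difference between single peaks.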
